A study of Homo sapiens with 4 samples.

Results

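The cytosolic ribosomal proteins were examined in MDA-MB-231, a human triple-negative breast cancer cell line with mesenchymal features. The members were the protein-coding genes of the deposited transcript table whose symbols are RPL or RPS with a number and at most a single letter A, X, Y or L, with or without a further number, RPLP with a number, or RPSA. Longer symbols such as RPL36AL, readthrough genes and the RPS6 kinases fall outside it. This rule uses names only and gave 83 genes, 51 of the large and 32 of the small subunit, of 12120 protein-coding genes in the table. They hold 249 protein-coding transcript rows, 155 in the large and 94 in the small subunit. All 46 standard large subunit proteins and all 31 standard small subunit proteins that carry such names were found. The other 6 members were RPL3L, RPL7L1, RPL22L1, RPL26L1, RPL39L and RPS27L, which are close relatives of standard subunits.

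The cells were cultured in 6-well plates and given DMSO, the solvent control, or KH-3, a small molecule inhibitor of the RNA-binding protein HuR, at 10 µM for 24 h. Each group had 2 libraries of mRNA, and the labels name a single parental line with no genetic change in either group. The paper also describes a group at a lower KH-3 dose, and which libraries entered the means used here is not stated. The values used here are the authors' mean normalized read count of each transcript, which is 1 number per transcript and carries no value for a library. No SD, no test and no comparison of KH-3 with DMSO can therefore be given, and every value below is a description of the cells over the pooled libraries. The depth of the libraries is unknown, since the table gives only these means and lists no transcript with a mean under 7.34. Of the markers of the line, VIM was at 3786, CD44 at 427, MSN at 2755, CAV1 at 2599 and ANXA1 at 6328 normalized reads per kb, against a median of 117 over all coding genes. The hormone receptor genes ESR1 and PGR and the epithelial cadherin CDH1 had no protein-coding row among those analysed here, ERBB2 was at 24.1 and EPCAM at 43.3, while the keratin gene KRT19 was at 1014 normalized reads per kb, above the median.

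A ribosome joins a small subunit, which reads the mRNA, to a large subunit, which forms the peptide bond and leads the growing chain out through a tunnel. Each subunit carries a single copy of nearly all of its proteins, so cells make these proteins in near-equal amounts, and much of that matching takes place after transcription: unassembled ribosomal proteins are degraded. Vertebrate ribosomal protein mRNAs are short, stable and abundant. Most begin with a terminal oligopyrimidine (TOP) tract, a C at the cap followed by an unbroken run of C and U, through which growth signals control their translation as a group. HuR, the target of KH-3, binds U-rich and AU-rich sequences, mostly in 3′ untranslated regions.

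The start sites of 12 members are shown because most members share the TOP tract at this place. Each line gives 10 bases before and 20 bases from the annotated RefSeq start site on the DNA of the coding strand, build GRCh38.p14, 5′ to 3′, and capitals mark a C at the start site with the unbroken run of C and T that follows it, where that run has at least 4 bases after the C. The first 7 are among the most highly expressed members and the next 3 are among the lowest. RPS28 and RPS7, the lowest of the small subunit, are shown as members without such a run. High members can lack it too: RPL19 and RPS29, at 14787 and 11169 normalized reads per kb, had no such run from an annotated start and are not shown. In RPS7, and at an annotated start of RPL19, the start lies inside a stretch of pyrimidines. The lack of a run there concerns the annotated base and need not mean that the mRNA has no TOP tract. The 12 were thus not chosen to show how level and start go together.
RPLP1 (chr15:69452808-69452837, strand +): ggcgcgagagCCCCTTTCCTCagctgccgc
RPL41 (chr12:56116623-56116652, strand +): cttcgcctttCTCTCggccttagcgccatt
RPL35 (chr9:124861938-124861967, strand -): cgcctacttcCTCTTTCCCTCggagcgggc
RPL39 (chrX:119791611-119791640, strand -): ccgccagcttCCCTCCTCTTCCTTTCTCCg
RPS27 (chr1:153990752-153990781, strand +): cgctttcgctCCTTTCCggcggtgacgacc
RPS19 (chr19:41860245-41860274, strand +): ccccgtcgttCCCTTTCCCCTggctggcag
RPS6 (chr9:19380217-19380246, strand -): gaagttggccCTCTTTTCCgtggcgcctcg
RPL18 (chr19:48619159-48619188, strand -): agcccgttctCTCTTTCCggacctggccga
RPL36A (chrX:101391001-101391030, strand +): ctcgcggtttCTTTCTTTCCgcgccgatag
RPS3 (chr11:75399508-75399537, strand +): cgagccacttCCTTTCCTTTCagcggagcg
RPS28 (chr19:8321486-8321515, strand +): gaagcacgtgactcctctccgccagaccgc
RPS7 (chr2:3575250-3575279, strand +): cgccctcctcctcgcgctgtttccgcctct

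Of the 83 members, 66 matched a RefSeq start site entry, and 47 of these (71.2%) had a start of a C followed by at least 4 pyrimidines. The share was 70.7% in the large subunit (29 of 41) and 72.0% in the small subunit (18 of 25). Over all 9485 coding genes with an entry it was 7.27% (690 genes), and 8.82% (6 of 68) over the mitochondrial ribosomal proteins, which are made for a separate ribosome. Among 10 translation genes listed for known TOP mRNAs, such as the elongation factors, 9 had it, and among 17 ribosome assembly factors 3 (17.6%). The runs of the members spanned 5 bases in RPL41 to 19 bases in RPL39, with a median of 8. A start annotated a few bases away from a pyrimidine stretch counts as without a run, and the start used in these cells was not measured.

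**Figure D1:**
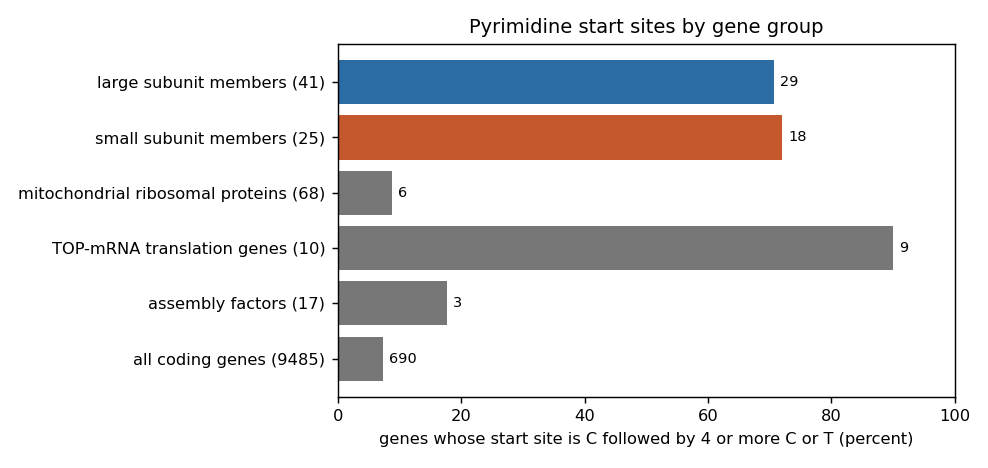
Percent of genes in each group whose annotated start site is a C followed by 4 or more C or T; the number after each group name is its genes with a start site entry, and the number at each bar is how many had the run. Both subunits stand near 71%, the listed TOP genes at 9 of 10, and all coding genes at 7.27%.

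Members with a TOP start had a median of 3190 normalized reads per kb (47 genes) and those with an entry but no TOP start a median of 1366 (19 genes). The start and the level were not tied gene by gene: RPL10 and RPL18 had runs of 12 and 8 bases and levels of 19.2 and 34.1 normalized reads per kb. Other promoter motifs were closer to the background. Within the 300 bases around the start, 250 before and 50 after, and on both strands, TATAAA occurred in 9.09% of the 66 members and 8.31% of all coding genes with an entry. CACGTG, the core E-box bound by MYC, occurred in 7.58% against 12.5%, CCGGAAG, a site form of ETS factors, in 36.4% against 22.7%, and the palindromic CGCG element of housekeeping promoters in 6.06% (4 genes) against 1.03%. These are matches of letters and say nothing of binding in these cells.

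The members were among the most abundant coding genes. Levels between genes are given as normalized reads per kb, the authors' mean normalized read count divided by transcript length and summed over the protein-coding transcripts of a gene. The median of the members was 1791 normalized reads per kb against 117 over all coding genes, 74 of 83 members were above that median, and 31 were among the 100 highest coding genes. In sum the members held 2.25% of the normalized reads of coding transcripts and 7.40% of the summed level per kb, a measure in which short mRNAs weigh more. Mitochondrial ribosomal proteins had a median of 414 normalized reads per kb (77 genes), the listed TOP genes 1265 (15 genes) and assembly factors such as NPM1 and NCL 553 (20 genes).

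**Figure D2:**
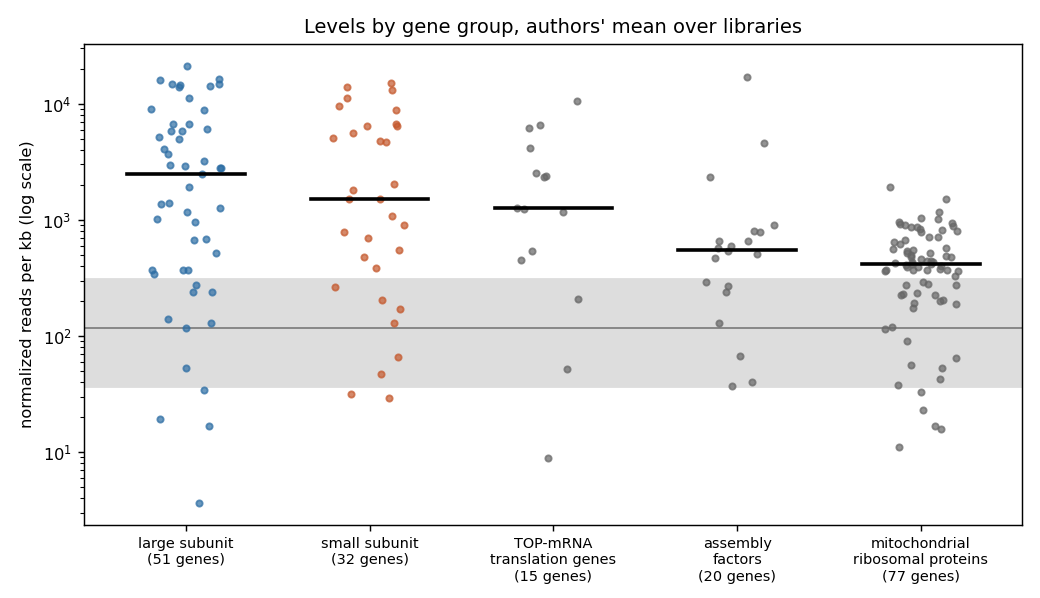
Level of each gene in normalized reads per kb (log axis), from the authors' mean over libraries, by gene group; bars are group medians, and the grey band and line give the quartiles and the median of all 12120 coding genes. Both subunits sit mostly above the band but reach below it, from 3.65 to 21233, while the mitochondrial ribosomal proteins lie between 11.0 and 1919.

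The members ran from 3.65 to 21233 normalized reads per kb, and their 90th percentile was 185 times their 10th, against 69.4 times over all coding genes and 16.6 times over the mitochondrial ribosomal proteins. The members' ratio depended on which rows were counted: it was 292 with the highest coding transcript only, 105 with pseudogene rows added to their parent, 64.5 with means of 50 or more, 59.6 over members with the canonical transcript listed and 45.3 with all transcript types. The ratios of the other groups were not recomputed under these settings, so no order of spreads is read from them. Of the 83, 13 were at or above 10000 normalized reads per kb, 37 between 1000 and 10000, 24 between 100 and 1000, and 9 below 100. The 9 below 100 were RPL36A, RPL18, RPL10, RPL8 and RPL3L in the large and RPS2, RPS15, RPS7 and RPS28 in the small subunit, and of these only RPL3L is not a standard subunit.

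In the large subunit the highest level was that of RPL5, which binds the small RNA of the large subunit together with RPL11, at 21233 normalized reads per kb. RPLP1, an acidic protein of the stalk that recruits elongation factors, followed at 16509, and RPL41, the shortest ribosomal protein, at 16016. RPL19 was at 14787 and RPL35 at 14710 normalized reads per kb, and both lie at the mouth of the exit tunnel. In the small subunit RPS27 was highest at 14958 normalized reads per kb, before RPS19 at 14050, the gene most often mutated in Diamond-Blackfan anaemia. RPS6, the substrate of S6 kinase, was at 13040, RPS29 at 11169, and RPS27A, made as a fusion to ubiquitin, at 9647 normalized reads per kb. These 5 genes held 50.6% of the normalized reads per kb of the small subunit, and the 5 of the large subunit 35.5% of theirs. The shares are not directly comparable, since 5 genes are a larger part of 32 members than of 51.

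At the low end of the large subunit, RPL3L, a form of RPL3 known from skeletal muscle and heart, was at 3.65 normalized reads per kb. Its single coding row had a mean of 7.96 normalized reads, close to the lowest listed mean of 7.34. RPL8 was at 16.9, RPL10, which completes the peptidyl transferase region late in assembly, at 19.2, RPL18 at 34.1 and RPL36A at 53.1 normalized reads per kb. In the small subunit RPS28 was lowest at 29.4 normalized reads per kb, then RPS7 at 31.6, RPS15 at 47.0, RPS2 at 65.3 and RPS3 at 129. All but RPL3L of these 10 are standard proteins of the ribosome. Rows of other transcripts are given below for RPS28, RPS7, RPL10 and RPL8, and pseudogenes for RPS2, RPL10 and RPS7. The rows of other transcripts summed to 97.7 normalized reads in RPL18, 106 in RPL36A, 350 in RPS2, 39.8 in RPS15 and 55.9 in RPS3. Their coding rows summed to 36.0, 36.7, 58.1, 41.0 and 168.

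**Figure D3:**
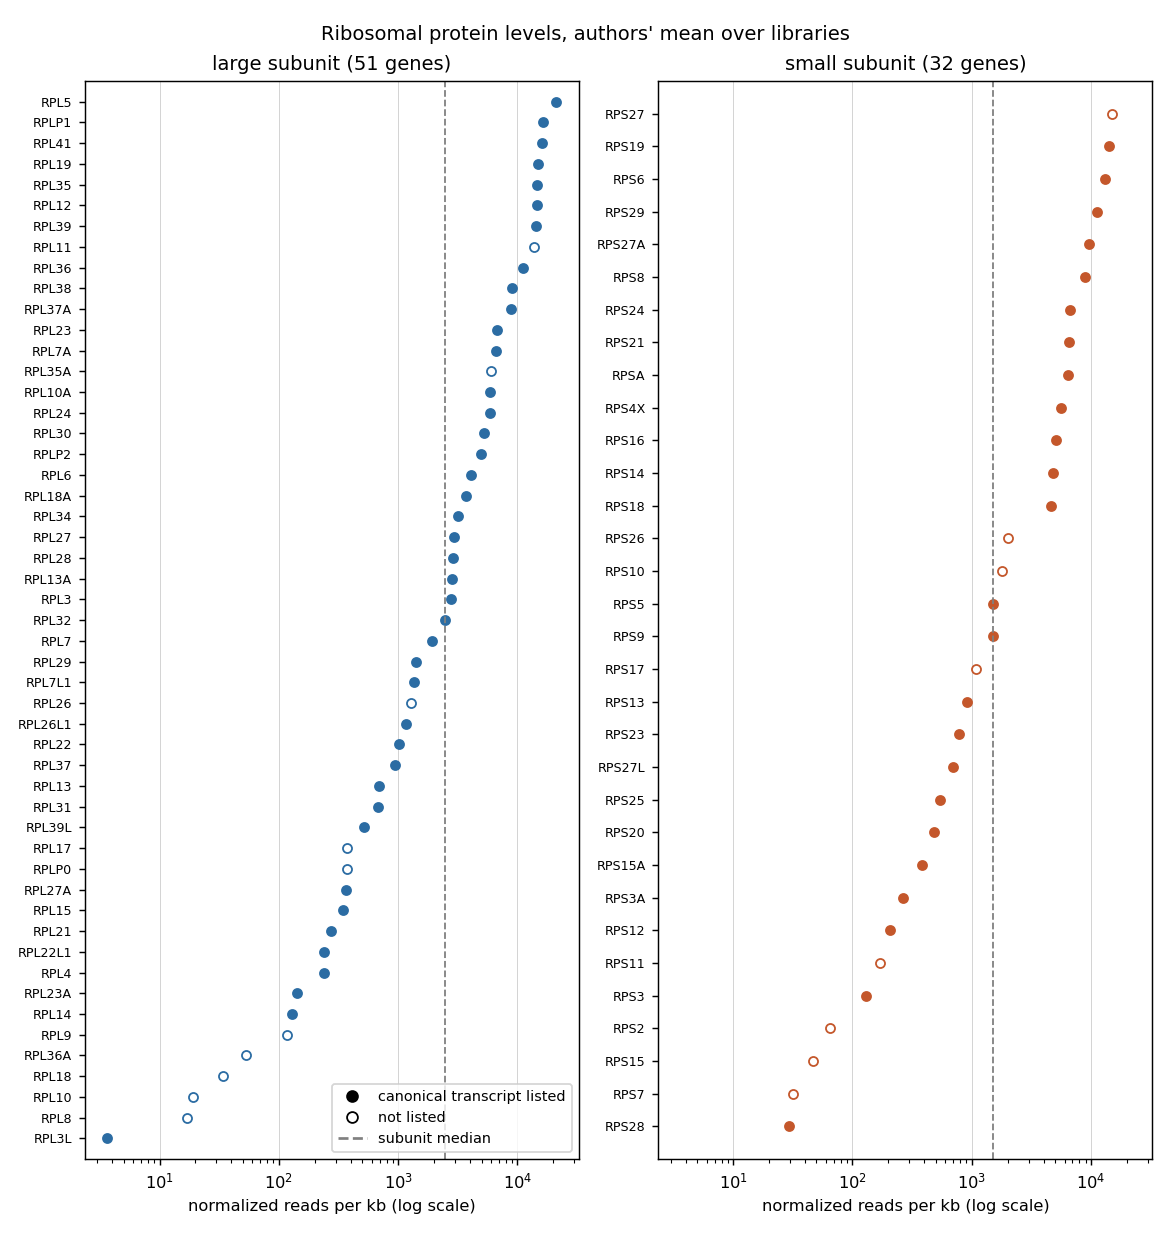
Level of each member in normalized reads per kb (log axis), from the authors' mean over libraries, ordered within each subunit; filled points are genes whose canonical transcript is listed in the table, open points those where it is not, and the dashed line is the subunit median, 2471 in the large and 1518 in the small subunit. The 5 lowest standard members of the large subunit, from RPL9 down to RPL8, are all open, as are 3 of the 4 lowest of the small subunit.

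Proteins that work at the same site of the ribosome often differed in the level of their protein-coding rows in this table. In the stalk RPLP1 was at 16509 and its base protein RPL12 at 14496 normalized reads per kb, RPLP2, the partner of RPLP1, at 4943, and RPLP0, which anchors both, at 370. RPL5 and RPL11, which enter the ribosome as a pair and together restrain MDM2 when assembly fails, were both high, at 21233 and 13814 normalized reads per kb. In the wall of the exit tunnel RPL39 was at 14297 normalized reads per kb, RPL17 at 372 and RPL4 at 237 in coding rows. RPL4 also had a processed transcript row at 12123 and a retained intron row at 2246 normalized reads per kb. In RPL39 and RPL17 every other row was below the coding level of the gene. The gap between RPL39 and RPL4 thus depended on which rows were counted. Around the tunnel mouth RPL19 and RPL35 were at 14787 and 14710 normalized reads per kb, RPL26 at 1270, RPL31 at 676 and RPL23A at 141. Near the peptidyl transferase centre RPL3 was at 2778, RPL10 at 19.2 and RPL8 at 16.9 normalized reads per kb.

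Among small subunit proteins at the mRNA entry, RPS2 was at 65.3 and RPS3 at 129 normalized reads per kb. RPS9, which also lies there and was added after its value was seen, was at 1515 normalized reads per kb. At the mRNA exit RPSA was at 6476 normalized reads per kb, RPS26 at 2019 and RPS28 at 29.4 in coding rows. RPS28 also had retained intron rows at 1833 and 1061 normalized reads per kb, against 62.1 in RPS26 and at most 137 in RPSA. The order of these genes thus depended on which rows were counted. Near the decoding site RPS23 was at 779 and RPS15 at 47.0 normalized reads per kb. The 9 members listed for Diamond-Blackfan anaemia, an inherited failure of red cell production, ran from 31.6 in RPS7 to 21233 in RPL5, with a median of 6013 normalized reads per kb in RPL35A. This list was chosen by hand and need not hold every gene linked to the disease. Its median is therefore not read against that of all members, which was 1791.

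The median level was 2471 normalized reads per kb in the large and 1518 in the small subunit, a ratio of 1.63. These values and their order depended on which rows were counted. The large subunit median was 1492 with the highest coding transcript only, and the small subunit median was 4667 with all transcript types and 3093 over members with the canonical transcript listed. The ratio changed too, and was 1.13 with the highest coding transcript only. With all transcript types of a gene it was 0.644, and over the members whose canonical transcript was listed it was 0.934, the second being chosen after seeing the data. Without values per library, a difference between the subunits could not be tested.

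Rows that were not labelled protein-coding held a large part of the reads of these genes. In 80 of the 83 members the table had 224 further rows of the types retained intron, processed transcript and nonsense-mediated decay, and these carried 27.5% of the normalized reads of the members over all these types and the coding rows. Retained intron rows made up 53.6% of that part, processed transcripts 34.2% and nonsense-mediated decay 12.2%. The median share over the members was 13.9%, and in 18 members, 9 of each subunit, it was above 50%. Over the whole table, protein-coding rows held 85.9% of the normalized reads, a share that also counts the rows of genes that are not coding. The share per gene is not given for other coding genes, so the count of 18 is not read as a trait of the members. Shares here are of normalized reads and not of reads per kb, so a long retained intron row weighs more than its number of molecules.

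The largest share was in RPS12, at 98.6%, where the single coding transcript had a mean of 130 normalized reads and its retained intron row 8979. The lengths of these rows were 631 and 639 bases, and their levels 205 and 14051 normalized reads per kb. In RPS28 it was 98.1%, with 39.0 coding and 2026 retained intron normalized reads, and in RPS7 97.2%, with 24.9 coding and 861 retained intron. In the large subunit RPL14 had 97.2%, with 176 coding and 6024 other normalized reads, RPL10 95.6%, with 14.4 and 309, and RPL4 95.1%, with 435 and 8426. RPL5 had the highest coding mean, 22111 normalized reads, beside 3549 in retained intron rows. A gene low in coding transcripts was thus not always low in its other rows: RPL4 and RPS12 were at 8426 and 8979 normalized reads there, and RPL8 had 46.5.

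**Figure D4:**
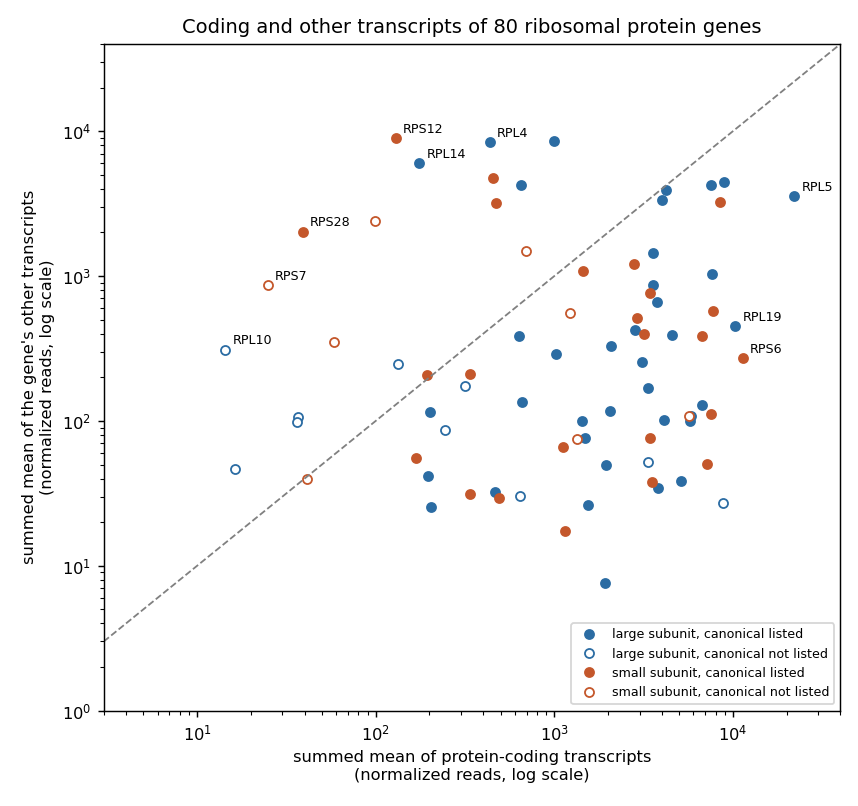
Summed mean of the protein-coding transcripts (horizontal axis) and of the retained intron, processed transcript and nonsense-mediated decay transcripts (vertical axis) of each of the 80 members that have such rows, in normalized reads on log axes; filled points have the canonical transcript listed, and the dashed line marks equal values. The 18 genes above the line include RPS12, RPL4 and RPL14, and RPL5 lies farthest right, at 22111 coding normalized reads.

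The canonical transcript of a gene, its main annotated form in GENCODE release 44, was listed for 65 members, 41 of the large and 24 of the small subunit, and not for 18. The median level was 2890 normalized reads per kb in the 65 and 271 in the 18, with ranges of 3.65 to 21233 and 16.9 to 14958. Over all coding genes the canonical transcript was listed for 85.7%, against 78.3% of the members, with medians of 137 and 38.4 normalized reads per kb. The authors used release 24, and 8 of the 18 missing canonical transcripts have identifiers above every identifier in the table, and their levels ran from 31.6 in RPS7 to 14958 normalized reads per kb in RPS27, with a median of 1905. The 10 others had a median of 59.2 and a highest level of 372 normalized reads per kb, in RPL17. All of the 5 lowest standard members of the large subunit, RPL9, RPL36A, RPL18, RPL10 and RPL8, are among these 10. The part that the missing rows play in the low levels was not tested.

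Most members rested on 1 main coding transcript. The highest coding transcript held a median of 84.6% of the coding normalized reads of its gene, it held over 90% in 34 members, and 14 members had a single coding row. The median number of coding rows was 3 in the members and 2 over all coding genes. The shares of the highest transcript are not given for all coding genes, so they are not read as a trait of the members. In 33 members that highest transcript was the canonical one, and in 32 it was another although the canonical one was listed. In RPS19 the transcript of 500 bases had 6808 normalized reads and the canonical one, of 2359 bases, 223. In RPL41 the transcript of 469 bases had 7327 and the canonical one, of 699 bases, 275 normalized reads. In RPLP1 the short form of 445 bases had 6407 and the canonical form of 1197 bases 2527 normalized reads.

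Ribosomal protein genes have many processed pseudogenes, copies made by reverse transcription that share most of the parent's sequence. The table held 59 pseudogene rows named after 32 members, 21 of the large and 11 of the small subunit, with a sum of 6894 normalized reads, or 2.90% of the coding sum of the members. Of these rows, 52 had a mean under 100 normalized reads, with a highest of 66.2, and 7 were above 100 and carried 88.2% of the pseudogene sum.

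RPL9P9 was the highest pseudogene, at 2067 normalized reads against 133 in the coding transcripts of RPL9, a ratio of 15.6. RPS2P5 had 649 normalized reads against 58.1 in RPS2, a ratio of 11.2. RPS23P8 had 742 against 1453 in RPS23, and RPL7P9 877 against 1917 in RPL7. The pseudogene share of parent and pseudogenes together was thus 94.0% for RPL9, 92.5% for RPS2, 67.4% for RPL10, 60.9% for RPS7, 33.8% for RPS23 and 31.4% for RPL7. In 4 members, RPL9, RPS2, RPL10 and RPS7, the pseudogene sum was above the coding mean, and all 4 lack the listed canonical transcript. The other rows above 100, named after their values were seen, were RPL3P4 with 896 normalized reads, RPSAP53 with 641 and RPL13AP20 with 209, each below its parent. Reads of a parent and such a copy can fit both, so the division between them is uncertain, and its part in the low parent values was not tested.

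**Figure D5:**
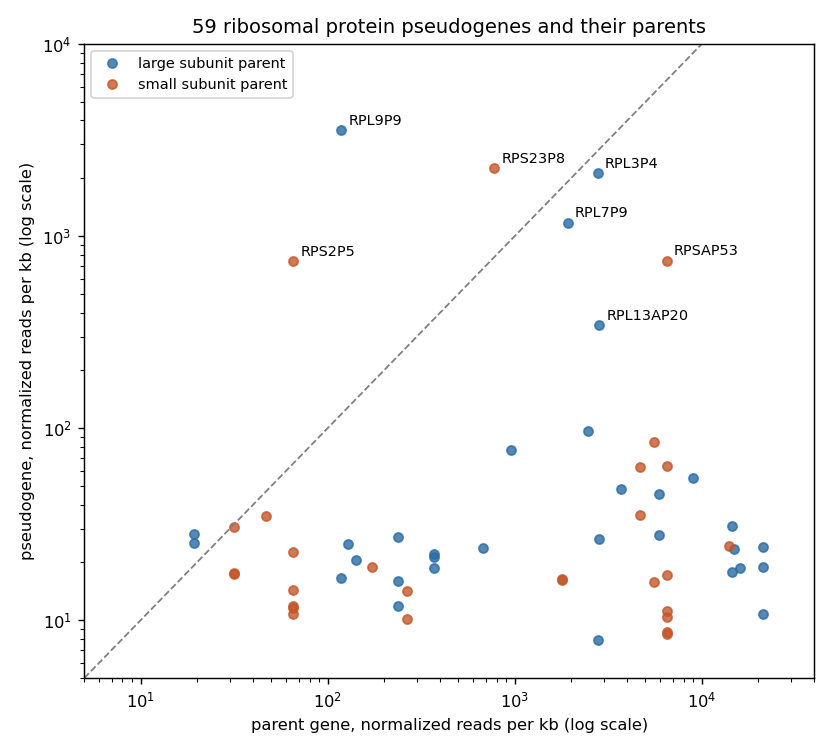
Level of each of the 59 pseudogene rows against the level of its parent gene, both in normalized reads per kb on log axes, coloured by the parent's subunit; the dashed line marks equal levels and the 7 pseudogenes above 100 normalized reads are named. Of the 7 named, RPL9P9, RPS2P5 and RPS23P8 lie above the line, as do the low rows RPL10P16 at 28.0 and RPL10P3 at 25.1 normalized reads per kb, and the 52 rows that are not named lie below 100.

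Several subunits have a close relative encoded by a separate gene. RPL3 was at 2778 and RPL3L at 3.65 normalized reads per kb, a ratio of 762. The single row of RPL3L had a mean of 7.96 normalized reads, close to the lowest listed mean of 7.34, so the size of this ratio is uncertain. RPL39 was 27.9 times RPL39L, a form best known from testis, at 14297 and 513 normalized reads per kb, and RPS27 was 21.3 times RPS27L, a target of p53, at 14958 and 701. RPL22 was at 1012 and RPL22L1 at 239 normalized reads per kb, a ratio of 4.22. RPL7 was 1.40 times RPL7L1, at 1918 and 1366, and RPL26 1.09 times RPL26L1, at 1270 and 1161 normalized reads per kb. RPL26 and RPL26L1 are near-identical, and the coding reads of RPL26L1 were divided over transcripts of which the highest held 31.0%, so their division is uncertain. RPL10L, a relative of RPL10, and RPS4Y1, a relative of RPS4X, had no protein-coding row among those analysed here.

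The annotated canonical mRNAs of the members were short. Their median length was 869 bases against 3472 over all coding genes, with a median 5′ untranslated region of 42 bases against 141 and a median 3′ untranslated region of 174 against 1382. The 3′ untranslated region was longer in the large than in the small subunit, with medians of 254 and 81.5 bases. AUUUA, the pentamer at the core of AU-rich elements, occurred in the 3′ untranslated region of 33 of 83 members (39.8%), against 74.6% of all coding genes and 54.5% of the mitochondrial ribosomal proteins, whose median 3′ untranslated region was 465 bases. Longer regions hold more chance matches, so these shares are not matched for length. The regions are those of annotated canonical forms, which were the highest coding transcript in only 33 of the 83 members. In RPL23 the canonical form has 6 matches but held 161 of 4107 coding normalized reads. The lengths and shares therefore need not be those of the mRNAs in these cells. In RPL37 the annotated 3′ untranslated region was longest, at 7242 bases with 16 AUUUA matches, and in RPS12 shortest, at 22 bases with 0. Both were named for these lengths after the values were seen. Across the 83 genes the level per kb and the canonical length had a Spearman correlation of -0.21, a description over genes that share libraries and whose level is itself divided by length. The members lie on 21 chromosomes, so the family is dispersed over the genome.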

How the data were processed

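MDA-MB-231 cells were given DMSO or KH-3, with 2 libraries of polyadenylated RNA in each group. Per the study's methods and the labels, the authors used STAR to place reads on release 24 of the GENCODE transcripts (build hg38), counted them per transcript with eXpress, which divides reads that fit several transcripts among them, and normalized with DESeq2. The versions of these tools, the eXpress count column and the libraries in the mean are not given in the sources used here. The deposited mean normalized read count per transcript is a signal averaged over libraries by the authors and was the only measurement used. The table's other columns hold the authors' own comparison of KH-3 with DMSO (log2 fold change, p-value and q-value). They were not used, so the effect of KH-3 is not analysed here.

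Means were divided by transcript length (kb) and summed over protein-coding transcripts, with no further filter or pseudocount. Python 3.11.15, numpy 2.4.6, pandas 2.3.3 and matplotlib 3.10.9 were used. The script was tested on simulated data. Canonical transcripts, untranslated regions and coordinates came from GENCODE release 44, matched by identifier without version, and start sites from RefSeq (GRCh38.p14), where any entry of a gene could count. In each subunit the 5 highest and 5 lowest members, those of the role lists, relatives, and the 3 with the largest share in other transcript types and in pseudogenes were named. Members and lists were chosen with earlier results of these data known. The column sum is not a depth, because rows under a mean of 7.34 are not listed, and no precision can be given. Alternatives were other transcript sets, a minimum mean of 50, lengths reduced by 100 bases, other member sets and added pseudogene rows.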

Additional observations from a re-analysis of the deposited data

How the results depend on the processing

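5 values (both subunit medians, their ratio, the share of coding reads and the spread) were recomputed under 8 alternatives. With no replicate spread, a value counted as moved past 1.5 times the main one, and 30 of the 40 stayed within that and kept their direction. This count is no measure of robustness. The share of coding reads uses no length, so reducing lengths could not move it. The ratio of the subunit medians counted as unmoved at 1.13 with the highest coding transcript only. The ratio of the subunit medians, 1.63, turned to 0.644 with all transcript types and to 0.934 over members with the canonical transcript listed, an alternative chosen after seeing the data. The median per kb of the large subunit, 2471, was 1492 with the highest coding transcript only. That of the small subunit, 1518, was 4667 with all transcript types and 3093 with the canonical transcript listed. The 90th over the 10th percentile, 185, was 292 with the highest coding transcript only, 45.3 with all transcript types, 64.5 with means of 50 or more, 105 with pseudogene rows added to their parent and 59.6 with the canonical transcript listed. Fewer low rows enter under a minimum mean, and the cause of the other changes was not tested. No paired analysis was possible because the values used are means over libraries, and for the same reason no replicate was left out. Depth is unknown, so no limit of detection can be given.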

Other observations

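Some ribosomal proteins carry names outside the rule. FAU, the fusion gene of RPS30, was at 2073 normalized reads per kb, and RACK1, which sits on the small subunit, at 565. RPL36AL, a copy of RPL36A, was at 6657 normalized reads per kb in a single coding transcript, against 53.1 in RPL36A. RPS10-NUDT3, a readthrough gene that begins in RPS10, was at 80.3 normalized reads per kb against 1791 in RPS10. Among the assembly factors NPM1 was at 16998 normalized reads per kb, above all members but RPL5, while EIF6, which keeps the large subunit from joining too early, was at 39.8 and lacked its listed canonical transcript. The elongation factor EEF1A1, which has many processed pseudogenes, was at 539 normalized reads per kb, below EEF1G at 10475 and EEF2 at 6136.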
